A study of Homo sapiens and Mus musculus with 7 samples.

Results

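The genes described here are 30 genes of cholesterol and fatty acid synthesis, chosen by symbol, out of 14920 genes with a row in an RNA-seq table of HEL cells. HEL is an established human erythroleukaemia line that carries both erythroid and megakaryocytic features. The set was divided into 15 enzymes of the sterol branch, 5 genes that regulate the pathway or move sterol, and 10 genes of the fatty acid branch. KAP1, the product of TRIM28, is a corepressor recruited to DNA by zinc finger proteins.

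There were 4 groups: KAP1 knockdown cells with hemin, KAP1 knockdown cells without hemin, control cells with hemin and control cells without hemin. Hemin, the oxidised form of haem that drives haemoglobin production in such lines, was given at 50 µM for 5 days. Every group had a single library, for which 250 ng of total RNA was the input, so no difference below has a replicate check and none was tested. The control libraries are headed Ctrl in the table and were taken as the KAP1 wild-type samples, the other HEL genotype in the labels. The sources used here do not state how the knockdown was made or whether the cells were a clone.

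Cholesterol is built from acetyl-CoA through mevalonate, isoprenyl diphosphates and squalene, which is cyclised to lanosterol and then trimmed to cholesterol. Fatty acids branch off at the same acetyl-CoA, which is carboxylated, polymerised to palmitate, and then desaturated and elongated. The transcription factors SREBP1 and SREBP2 act on both branches: SCAP carries them to the Golgi for cleavage when membrane sterol is low, and INSIG proteins hold SCAP back when it is high. Red cell precursors make and take up lipid for the membranes of dividing cells.

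SREBPs bind promoters together with NF-Y, which recognises CCAAT, and Sp1, which recognises GGGCGG, so the promoters of the genes are part of the picture. RefSeq start-site tables of build GRCh38.p14 held a promoter for 27 of the 30 genes. The first promoter listed for a gene was used, and it was not matched to the transcript measured here. The 250 bases before each start were searched on both strands for CCAAT, for GGGCGG and for the sterol element core TCACNCCAC. Among the sterol enzymes, 10 of 13 promoters held CCAAT (76.9%), against 3 of 5 regulators (60%) and 5 of 9 fatty acid genes (55.6%). The share was 35.8% among 8030 genes expressed here and 32% among all 35116 promoters. GGGCGG was in 12 of 13 sterol enzyme promoters (92.3%), 5 of 5 regulator promoters (100%) and 7 of 9 fatty acid promoters (77.8%), against 67.6% of the expressed genes and 42.6% of all promoters. The sterol element core was found only in the SREBF2 promoter, against 0.859% of the expressed genes and 0.883% of all promoters.

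The sequences of 6 promoters follow, 5′ to 3′ in the sense of the gene, with every match to these motifs on either strand in capitals. EBP, MVK and PMVK are shown because their RNA was higher in knockdown cells with and without hemin, HMGCS1 and IDI1 because their knockdown ratios differed most between the hemin states, and SREBF2 because it alone held the sterol element core. They lie at chrX:48521558-48521807 on the plus strand (EBP), chr12:109573544-109573793 on the plus strand (MVK), chr1:154936720-154936969 on the minus strand (PMVK), chr5:43313413-43313662 on the minus strand (HMGCS1), chr10:1056705-1056954 on the minus strand (IDI1) and chr22:41832855-41833104 on the plus strand (SREBF2).
EBP: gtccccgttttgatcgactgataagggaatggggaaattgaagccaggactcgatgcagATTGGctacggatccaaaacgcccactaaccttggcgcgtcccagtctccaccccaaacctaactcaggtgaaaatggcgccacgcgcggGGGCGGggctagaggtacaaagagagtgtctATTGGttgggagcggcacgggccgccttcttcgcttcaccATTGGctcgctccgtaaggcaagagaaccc
MVK: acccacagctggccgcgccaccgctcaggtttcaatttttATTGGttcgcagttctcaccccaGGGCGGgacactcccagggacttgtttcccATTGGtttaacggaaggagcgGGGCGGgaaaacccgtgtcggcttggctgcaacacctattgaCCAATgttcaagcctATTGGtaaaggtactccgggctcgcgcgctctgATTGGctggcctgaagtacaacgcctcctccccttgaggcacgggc
PMVK: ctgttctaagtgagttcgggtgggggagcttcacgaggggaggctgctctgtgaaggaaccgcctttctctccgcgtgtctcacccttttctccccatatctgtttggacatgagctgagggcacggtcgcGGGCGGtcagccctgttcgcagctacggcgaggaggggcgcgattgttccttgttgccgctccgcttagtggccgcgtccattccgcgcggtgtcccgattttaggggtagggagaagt
HMGCS1: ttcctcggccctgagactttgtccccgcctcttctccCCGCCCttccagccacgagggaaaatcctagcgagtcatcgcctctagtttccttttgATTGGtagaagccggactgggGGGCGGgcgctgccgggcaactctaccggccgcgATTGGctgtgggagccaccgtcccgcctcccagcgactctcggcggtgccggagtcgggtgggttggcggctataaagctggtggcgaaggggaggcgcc
IDI1: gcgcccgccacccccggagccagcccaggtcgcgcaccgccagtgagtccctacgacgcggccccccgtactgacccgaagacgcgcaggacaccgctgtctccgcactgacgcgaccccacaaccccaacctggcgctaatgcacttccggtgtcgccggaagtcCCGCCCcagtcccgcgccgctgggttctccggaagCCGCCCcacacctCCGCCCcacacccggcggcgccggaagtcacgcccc
SREBF2: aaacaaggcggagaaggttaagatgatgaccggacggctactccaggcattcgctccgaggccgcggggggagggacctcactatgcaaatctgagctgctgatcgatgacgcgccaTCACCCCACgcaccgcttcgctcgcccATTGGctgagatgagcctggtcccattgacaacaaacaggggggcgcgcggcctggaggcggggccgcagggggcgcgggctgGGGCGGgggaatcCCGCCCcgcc
The MVK stretch held 5 CCAAT matches, the EBP stretch 3 and the HMGCS1 stretch 2. In SREBF2 the sterol element core began 133 bases before the start and the CCAAT box 106 bases before it. IDI1 held 3 GGGCGG matches and no CCAAT, and PMVK held 1 and none. The other sterol enzyme promoter without CCAAT was that of CYP51A1. A match to these letters is a description of the window and not a binding site.

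Levels are given as scaled TPM, that is reads per transcript length after scaling the libraries to each other, and a ratio is a log2 difference with 0.5 scaled TPM added to each value. Brackets hold 95% counting intervals of the ratio, computed without that addition. Only counting error is covered, and without molecular identifiers reads need not be separate molecules. Reads on the chosen transcripts numbered 42086608 and 24015883 in knockdown cells with and without hemin, and 37941053 and 34207925 in control cells with and without hemin. Reads on a member ranged from 329 to 49168 per library. A gene counts as higher or lower below when it was at least 1.5-fold apart and reached 5 scaled TPM in the higher library.

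TRIM28 itself was at 190.1 scaled TPM in knockdown and 400.0 in control cells with hemin, and at 317 in knockdown and 421 in control cells without hemin. Its row holds whole numbers, unlike those of the other genes here. The sources used here do not state how that row was made, so it has no interval and its scaling like the other rows is uncertain. Its knockdown ratio was -1.07 with hemin and -0.41 without, but -0.86 and -0.99 in the deposited values as they stand, so the order of the pairs depends on the scaling. The 10 erythroid markers summed to 61465 scaled TPM with hemin and 15045 without in knockdown cells, and to 55035 with and 14748 without in control cells. HBG1 and HBG2 made up most of these sums, at 25946 and 32664 in knockdown cells with hemin. The median knockdown ratio of the 10 was -0.27 with hemin, with 3 above 0, and 0.06 without, with 6 above 0. Proliferation markers were higher in knockdown cells, 6 of 6 with hemin and 5 of 6 without, and summed to 705 and 714 scaled TPM, against 279 and 379.7 in control cells with and without hemin. All 6 eosinophil, mast cell and leukocyte markers were lower in both knockdown comparisons, summing to 59.4 with and 40.0 without hemin, against 939 and 1649 in control cells. The 6 megakaryocytic markers summed to 1312 with and 1483 without hemin in knockdown cells, against 1105 with and 2300 without in control cells. They differed in direction: with hemin THBS1 (209 against 4.83) and PF4 (68.7 against 14.5) were higher in knockdown than in control cells. ITGA2B (874 against 891), GP9 (155 against 178) and CD9 (5.40 against 16.2) lay below control there. Of the 5 that reached 5 scaled TPM, 2 were above 0 in each knockdown pair, with medians of -0.03 with and -0.61 without hemin. No marker was listed at 0, since the table holds no 0. The part of these shifts in the lipid gene results was not tested, and in bulk RNA fewer cells of a type and less RNA per cell cannot be told apart.

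Once the libraries were scaled to each other, sterol enzyme RNA was higher in the knockdown libraries, with the larger median in the hemin pair. With hemin all 15 sterol enzymes had a ratio above 0, with a median of 0.63, against a median of 0.01 and 50.4% of genes above 0 over all genes. Without hemin 13 of 15 were above 0 and the median was 0.44, against 0.03 and 51.8% over all genes. That second median turned to -0.14 when the deposited values were taken as they stand, where the median over all genes was -0.55. In scaled values the fatty acid branch lay closer to control: its median was 0.27 with hemin, with 7 of 10 genes above 0, and -0.09 without hemin, with 5 of 10, the second turning to 0.0247 under plain library totals. In the deposited values as they stand that second median was -0.66, below the median over all genes of -0.55. The sterol median of -0.14 lay above it. The summed level of the 15 sterol enzymes was 1623 scaled TPM in knockdown and 1024 in control cells with hemin, and 1572 in knockdown and 1266 in control cells without hemin. For the 10 fatty acid genes the sums lay closer together, at 1482 and 1298 scaled TPM with hemin and 1641 and 1563 without. The summed sterol branch was therefore 1.10 times the fatty acid branch in knockdown cells with hemin and 0.958 times in those without, against 0.789 and 0.810 times in control cells with and without hemin.

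**Figure D1:**
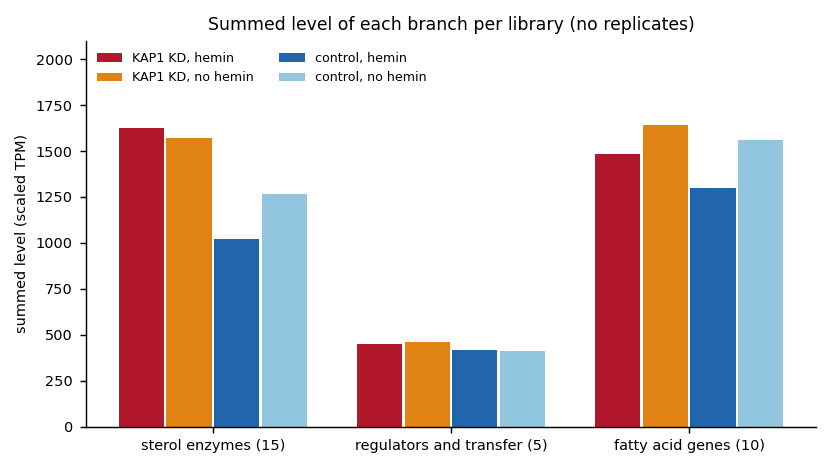
Summed level of each group of genes after scaling the libraries to each other (y axis, scaled TPM, starting at 0) in each of the 4 libraries (bars, 1 library per group, no error). The sterol enzyme bars of the knockdown libraries (1623 with and 1572 without hemin) stand above those of the control libraries (1024 and 1266), while the fatty acid bars span 1298 to 1641.

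Past the 1.5-fold limit, 9 of the 30 genes were higher in the knockdown with hemin, against a background of 15% of all genes, and 1 was lower, against 12.8%. Without hemin 5 were higher, against 17.8%, and 1 was lower, against 17.1%. The count without hemin was thus near or under its background, while the count with hemin was 9 of 30. MVK, PMVK and EBP were higher in both pairs and no gene was lower in both, where the background was 9% and 6.78% of all genes. These 3 of 30 are near that share. All 3 are sterol enzymes, and in the deposited values as they stand each came under the limit without hemin, at 0.17 for MVK, 0.30 for PMVK and 0.27 for EBP. Each lay above the median over all genes there, which was -0.55.

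MVK, mevalonate kinase, phosphorylates mevalonate. It was the lowest of the 30 genes in 3 of the 4 libraries, at 16.2 scaled TPM in knockdown and 8.65 in control cells with hemin, and at 21.8 in knockdown and 12.9 in control cells without hemin. Its knockdown ratio was 0.86 [0.71, 1.09] with hemin and 0.74 [0.57, 0.95] without. Both knockdown libraries lay above both control libraries. PMVK, which adds the second phosphate, was at 77.7 scaled TPM in knockdown and 43.7 in control cells with hemin, and at 109.6 in knockdown and 59.5 in control cells without. Its ratios of 0.82 [0.72, 0.94] and 0.88 [0.77, 0.99] were alike in the hemin states. EBP, the sterol isomerase that shifts the ring double bond, was at 79.0 in knockdown and 37.6 in control cells with hemin, and at 82.1 and 45.4 without. Its ratios were 1.06 [0.95, 1.19] with hemin, or 2.09-fold, and 0.85 [0.72, 0.98] without. PMVK and EBP too had both knockdown levels above both control levels. The same order held for HMGCS1, FDPS, FDFT1, SQLE, LSS, TM7SF2, NSDHL, HSD17B7 and DHCR7, so it does not set these genes apart. The share of all genes with this order was not computed.

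HMGCS1, the synthase that makes HMG-CoA from acetoacetyl-CoA at the entry to the mevalonate route, had the largest knockdown ratio of the 30 genes in the hemin pair. Its level was 189.8 scaled TPM in knockdown and 71.3 in control cells with hemin, a ratio of 1.41 [1.36, 1.46] or 2.65-fold. Without hemin it was at 80.1 in knockdown and 66.2 in control cells, a ratio of 0.27 [0.21, 0.34]. A single library, knockdown with hemin, stood apart from the other 3. SQLE, squalene epoxidase, the oxygen-dependent step that is a control point late in the route, was at 341 scaled TPM in knockdown and 174 in control cells with hemin, and at 261 and 227 without. The SQLE ratio was 0.97 [0.94, 1.01] with hemin and 0.20 [0.16, 0.24] without.

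DHCR7, the reductase that makes cholesterol from 7-dehydrocholesterol, was at 88.7 scaled TPM in knockdown and 45.4 in control cells with hemin, and at 106 and 74.0 without. Its ratio was 0.96 [0.89, 1.04] with hemin and 0.52 [0.45, 0.60] without. FDPS, which builds farnesyl diphosphate, was at 181 in knockdown and 117 in control cells with hemin, with a ratio of 0.63 [0.56, 0.69] that came to 0.54 and under the limit once the trend on transcript length was removed. HSD17B7, a sterol ketoreductase with near-identical copies that could share its reads, was at 28.8 in knockdown and 16.1 in control cells with hemin (0.81 [0.67, 1.00]). In both DHCR7 and FDPS the control library with hemin was the lowest of the 4.

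NSDHL and LSS had their larger knockdown ratio without hemin. NSDHL, which removes the C4 carboxyl group of the sterol ring, was at 49.4 scaled TPM in knockdown and 24.5 in control cells without hemin, a ratio of 1.00 [0.86, 1.16] that was the largest of the 30 genes there. With hemin NSDHL was at 32.2 and 21.4, with a ratio of 0.58 [0.44, 0.73]. LSS, the cyclase that folds squalene epoxide into lanosterol, was at 132 in knockdown and 82.1 in control cells without hemin (0.68 [0.63, 0.74]), but at 96.2 and 91.8 with hemin (0.07 [0.02, 0.11]). Thus LSS stood out in the knockdown library without hemin alone. In the deposited values as they stand both came under the limit without hemin, at 0.42 for NSDHL and 0.10 for LSS. Both lay above the median over all genes there, which was -0.55. MVD, the decarboxylase that makes isopentenyl diphosphate, had a ratio of 0.06 [-0.05, 0.18] with hemin and 0.44 [0.33, 0.56] without.

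IDI1 and CYP51A1 were the sterol enzymes with a knockdown ratio below 0 without hemin, IDI1 past the limit and CYP51A1 within it. Their promoters lacked CCAAT, as did that of PMVK, whose ratios were 0.82 with and 0.88 without hemin. A link between promoter letters and ratios was not tested. IDI1, the isomerase that gives dimethylallyl diphosphate, was at 79.9 scaled TPM in knockdown and 147 in control cells without hemin, a ratio of -0.87 [-0.95, -0.80]. With hemin it was at 111 in knockdown and 94.6 in control cells, a ratio of 0.22 [0.16, 0.29]. CYP51A1, the demethylase acting on lanosterol, was at 24.4 and 29.1 without hemin (-0.25 [-0.37, -0.13]) and at 34.3 and 26.4 with hemin (0.37 [0.28, 0.47]). The remaining sterol enzymes, FDFT1 (squalene synthase) and TM7SF2 (a sterol C14 reductase), had ratios of 0.37 and 0.40 with hemin and 0.16 and 0.21 without.

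**Figure D2:**
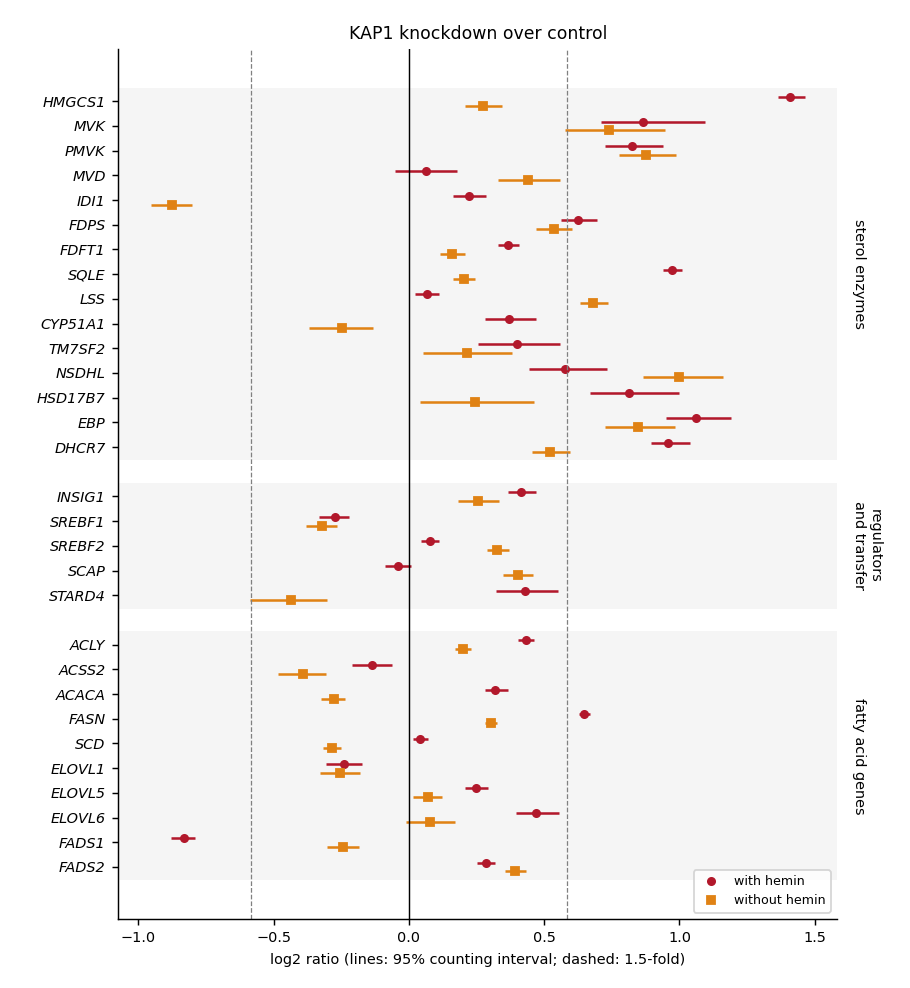
Knockdown over control log2 ratio (x axis) of each gene with hemin (dark red) and without hemin (orange), with 95% counting intervals as lines and dashed lines at 1.5-fold. Every sterol enzyme lies right of 0 with hemin, IDI1 lies at -0.87 without hemin, and FADS1 lies at -0.83 with hemin.

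In the fatty acid branch, FASN and FADS1 passed the limit, in opposite directions and in the hemin pair. FASN, the synthase that builds palmitate, was at 276 scaled TPM in knockdown and 176 in control cells with hemin, and at 363 and 294 without. Its ratio was 0.65 [0.63, 0.67] with hemin and 0.30 [0.28, 0.32] without. FADS1, the delta-5 desaturase of polyunsaturated fatty acids, was at 72.7 in knockdown and 129.7 in control cells with hemin, a ratio of -0.83 [-0.88, -0.79]. Without hemin FADS1 was at 71.8 in knockdown and 85.2 in control cells, a ratio of -0.24 [-0.30, -0.19]. The FADS1 difference thus rested on the control library with hemin, which was the highest of the 4.

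Around FASN, the enzymes that supply its substrates stayed within 1.5-fold in both pairs. ACLY, which splits citrate into cytosolic acetyl-CoA, was at 244 in knockdown and 181 in control cells with hemin, and at 313 and 273 without, giving ratios of 0.43 [0.40, 0.46] and 0.20 [0.17, 0.23]. ACSS2, which makes acetyl-CoA from acetate, was lower than in control by less than 1.5-fold in both states, at -0.14 and -0.39. ACACA, the carboxylase that makes malonyl-CoA, was at 54.3 and 43.4 with hemin (0.32 [0.28, 0.37]) and at 54.6 and 66.3 without (-0.28 [-0.33, -0.23]). Both knockdown levels of ACACA were nearly equal while the control levels differed.

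The desaturases and elongases stayed within 1.5-fold apart from FADS1. SCD, the stearoyl-CoA desaturase that makes oleate, had ratios of 0.04 [0.01, 0.07] with hemin and -0.28 [-0.32, -0.25] without. FADS2, the delta-6 desaturase beside FADS1 on chromosome 11, was at 264 in knockdown and 217 in control cells with hemin, and at 276 and 210.4 without. Its ratios of 0.28 and 0.39 had the opposite sign to those of FADS1. In the deposited values as they stand both genes were below 0 without hemin (-0.19 for FADS2 and -0.82 for FADS1). The median over all genes was -0.55 there, so FADS2 lay above that median and FADS1 below it. The elongases ELOVL1, ELOVL5 and ELOVL6 had ratios of -0.24, 0.25 and 0.47 with hemin and -0.25, 0.07 and 0.08 without.

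No regulator passed the limit in either knockdown pair. SREBF2, which encodes the SREBP that acts mainly on sterol genes, was at 174 in knockdown and 165 in control cells with hemin (0.08 [0.04, 0.11]) and at 191 and 152 without (0.33 [0.29, 0.37]). SREBF1, which encodes the SREBPs that act mainly on fatty acid genes, was at 48.5 and 58.7 with hemin (-0.27 [-0.33, -0.22]) and at 65.6 and 82.1 without (-0.32 [-0.38, -0.26]). The SREBF genes thus differed from control in opposite directions. In the deposited values as they stand both were below 0 without hemin (-0.25 for SREBF2 and -0.90 for SREBF1). The median over all genes was -0.55 there, so SREBF2 lay above that median and SREBF1 below it. SCAP, the escort protein, was at 79.0 and 81.3 with hemin (-0.04 [-0.09, 0.01]) and at 106 and 80.3 without (0.40 [0.35, 0.46]). INSIG1, the retention protein that is itself an SREBP target, was at 117 and 87.8 with hemin (0.41 [0.36, 0.47]) and at 75.9 and 63.5 without (0.26 [0.18, 0.33]). STARD4, a sterol carrier between membranes, was at 33.7 and 24.9 with hemin (0.43 [0.32, 0.55]) and at 23.5 and 32.0 without (-0.44 [-0.59, -0.30]). The transcripts listed for INSIG1 spread by up to 0.234 on the log2 scale within a comparison, more than those of any other member.

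By the same limit, cells with hemin were compared with cells without it. The count of genes lower in control cells lay above the share of all genes, and the other counts lay under it. In knockdown cells 2 of 30 genes were higher with hemin, against 12.1% of all genes, and 2 were lower, against 10.7%. In control cells 1 was higher, against 9.26%, and 5 were lower, against 8.21%. None was past the limit in the same direction in both backgrounds, where the background was 2.78% higher and 2.75% lower. The sterol median was -0.17 in knockdown cells, turning to 0.77 in the deposited values as they stand, where all genes had a median of 0.94, and -0.29 in control cells. The fatty acid median was -0.01 in knockdown cells, with 4 of 10 genes above 0, and -0.24 in control cells, with 2 of 10. The first of these was above 0 under plain library totals, equal upper quartiles and the deposited values as they stand.

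In knockdown cells HMGCS1 had the largest hemin ratio of the set, at 189.8 scaled TPM with hemin and 80.1 without, a ratio of 1.24 [1.19, 1.30] or 2.36-fold. INSIG1 was the other gene higher, at 117 with and 75.9 without hemin (0.62 [0.56, 0.69]). MVD was lower, at 36.4 with and 58.2 without (-0.67 [-0.79, -0.57]), but its ratio turned to 0.28 in the deposited values as they stand. NSDHL was also lower (-0.61 [-0.75, -0.49]), though its ratio came to -0.53 with equal upper quartiles or the length trend removed. It turned to 0.33 in the deposited values as they stand. The median over all genes was 0.94 in those values, so MVD and NSDHL both lay below it. For HMGCS1 the ratio in control cells was 0.10 [0.04, 0.17], and for INSIG1 it was 0.47 [0.40, 0.53].

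In control cells the 5 genes lower with hemin came from both branches. FASN was at 176 scaled TPM with hemin and 294 without (-0.74 [-0.77, -0.72]), the lowest ratio of the set. DHCR7 was at 45.4 with hemin and 74.0 without (-0.70 [-0.78, -0.63]), and IDI1 at 94.6 with and 147 without (-0.63 [-0.70, -0.57]). ACACA (-0.61) and ACLY (-0.59) were just past the limit and came to -0.58 and -0.57, under it, with plain library totals or equal upper quartiles. In the deposited values as they stand FASN, DHCR7 and IDI1 too came under it, at -0.58, -0.54 and -0.47. The median over all genes was 0.15 there. FADS1 was the gene higher with hemin in control cells, at 129.7 with and 85.2 without (0.60 [0.56, 0.65]), while in knockdown cells it was level at 72.7 and 71.8 (0.02 [-0.04, 0.08]). SREBF1 stayed within the limit in both backgrounds, at -0.43 in knockdown and -0.48 in control cells. In the deposited values as they stand the first was 0.51, below the median over all genes of 0.94 there.

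**Figure D3:**
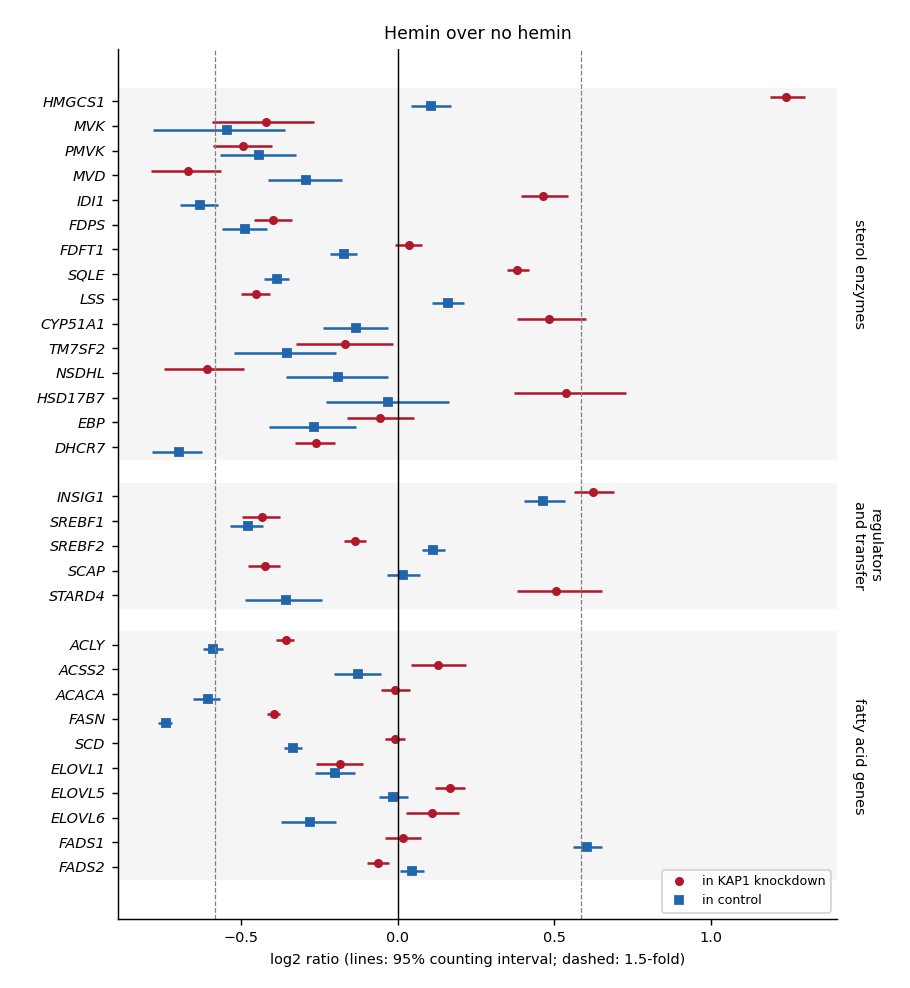
Hemin over no hemin log2 ratio (x axis) of each gene in knockdown cells (red circles) and control cells (blue squares), with 95% counting intervals as lines and dashed lines at 1.5-fold. HMGCS1 stands at 1.24 in knockdown cells, and the genes below -0.58 in control cells include FASN, DHCR7 and IDI1.

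The knockdown ratio with hemin minus that without had a median of 0.20 over the 30 genes, with 22 of 30 above 0 (73.3%), against a median of 0.01 over 10621 genes, of which 51% were above 0. The sterol median of this difference was 0.21, the fatty acid median 0.24 and the regulator median 0.05, so the branches did not stand apart by it. It was at least 1.5-fold higher for 6 of the 30 genes, against 12.8% of all genes, and lower for 2, against 11.6%. The 6 were HMGCS1 at 1.13, IDI1 at 1.10, STARD4 at 0.87, SQLE at 0.77, CYP51A1 at 0.62 and ACACA at 0.60, all on the log2 scale. LSS at -0.61 and FADS1 at -0.59 were the other way. With 1 library in each group, these differences of ratios have no test.

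Read by library, the control library with hemin held the lowest level of 17 of the 30 genes and the highest of 1, FADS1. It was the lowest for 11 of 15 sterol enzymes and 6 of 10 fatty acid genes, against 27.75% of all genes, and 26.5% of all genes were highest there. The knockdown library with hemin held the highest level of 9 and the lowest of 3, against 21.2% and 19.69% of all genes. The knockdown library without hemin held the highest level of 14 and the lowest of 5, against 31.76% and 31.24%. The control library without hemin held the highest of 6 and the lowest of 5, against 20.54% and 21.32%, so its counts were near those shares. Levels spanned a wide range within each branch, with FASN and SQLE among the highest genes and MVK, HSD17B7 and TM7SF2 among the lowest sterol enzymes.

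**Figure D4:**
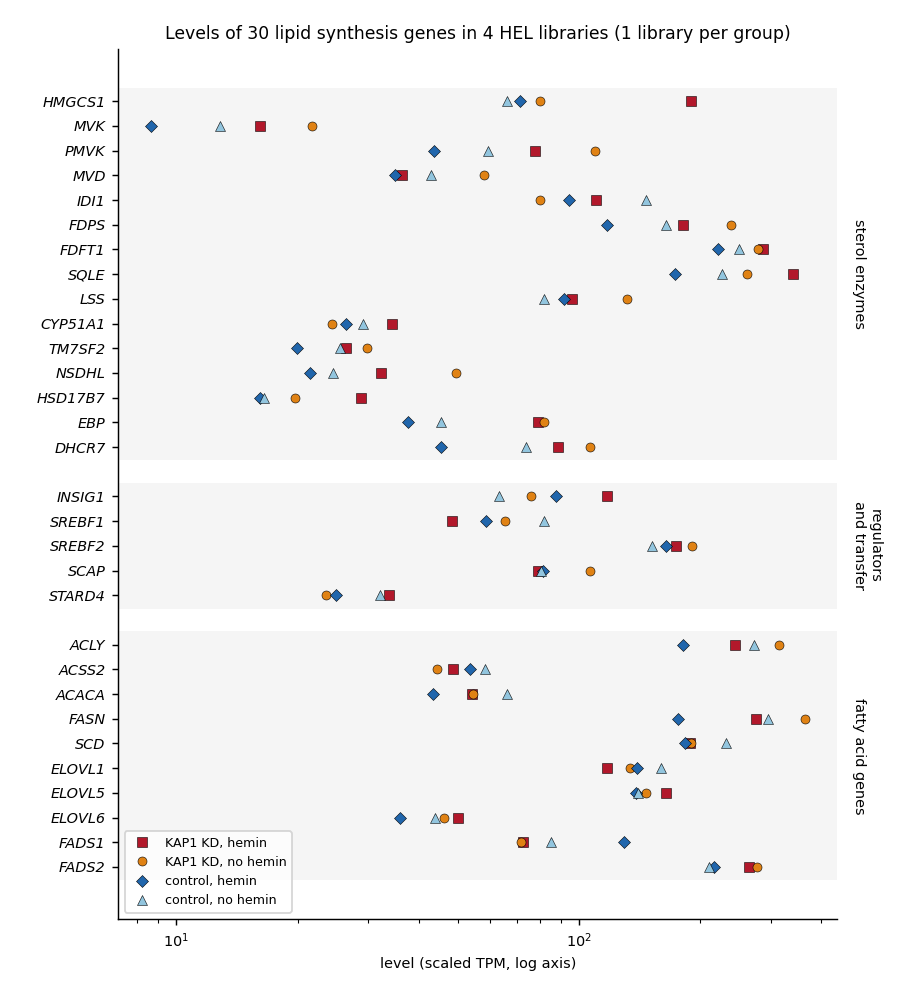
Level of each of the 30 genes (x axis, scaled TPM on a log axis) in the 4 libraries (symbols, 1 library per group, no error). The control library with hemin (dark blue diamonds) is the leftmost symbol for 17 genes, and HMGCS1 in the knockdown library with hemin stands apart at 189.8.

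Other genes of the pathway, taken from lists and not from the 30, were described by the same limit, past which 15% of all genes were higher and 12.8% lower in the knockdown with hemin, and 17.8% and 17.1% without. Of 8 other sterol enzymes, 4 were higher in the knockdown with hemin and 0 lower, and 4 were higher and 1 lower without hemin, with medians of 0.58 and 0.15. ACAT2, which makes acetoacetyl-CoA for HMGCS1, was at 141 in knockdown and 49.3 in control cells with hemin, and at 105 and 56.9 without, with ratios of 1.51 and 0.88. MSMO1, the C4 methyl sterol oxidase, was at 86.8 in knockdown and 62.7 in control cells with hemin and at 31.5 and 56.7 without. Its ratios of 0.47 and -0.84 changed sign between the hemin states, like those of IDI1 and CYP51A1. Of 5 further genes of SREBP processing, none was past the limit with hemin and 3 were lower without it, with medians of -0.32 and -0.59. Of 9 expressed genes of sterol uptake, storage and efflux, 0 were higher and 3 lower with hemin, and 0 higher and 1 lower without. ABCA1, the sterol exporter, was among the lower in both, at 2.13 in knockdown and 6.53 in control cells with hemin and at 2.09 and 10.1 without. Other fatty acid genes were mixed: of 15 expressed with hemin 3 were higher and 2 lower, and of 14 expressed without hemin 3 were higher and 5 lower. With so few genes in a list, several of these counts, such as 3 higher of 14 or 1 lower of 8, were near the shares of all genes.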

How the data were processed

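RNA-seq of 4 HEL libraries was used, 1 per group. Per the file headers the deposited values are RPKM per RefSeq transcript. The submitters' processing notes name Bowtie and hg19, with no role or version, and the sources used here state no further step. In the deposited RPKM table each value was a whole number of reads divided by transcript length, times a factor near 1 per library, and was not scaled to depth: whole reads came out for 24533 of 24533 rows without whole numbers, within 0.002 reads plus a relative 4e-09. Another 5 rows, TRIM28 among them, held whole numbers throughout and give no reads. Values were divided by the value of 1 read and by the library's reads times its TMM factor (0.9643 to 1.033). They were then brought to a mean library sum of 1000000 (scaled TPM), so the sums of single libraries differ. Since the design assumed depth-scaled RPKM, this step was added. Reads that share a common factor first came out divided by it. A factor of up to 12 was restored where the transcript length was not whole without it, after which 24530 of 24533 rows had whole lengths. A shared factor that also divides the length would go unseen, which would widen the interval.

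For each gene the transcript with the highest mean value was kept, since a gene's transcripts count many of the same reads, and a transcript under several symbols was kept once, which left 14920 genes. The 30 members had 50 rows, and 17 had a single row. Ratios used a pseudocount of 0.5, a floor of 5 scaled TPM in the higher library and a limit of 1.5-fold. Intervals are exact (Clopper-Pearson) intervals of the binomial share of reads at 95%, and were 0.0392 to 0.422 wide on the log2 scale for members. No test across samples was run: each group had 1 library, and a fit of knockdown and hemin without their interaction would rest on 1 residual degree of freedom. Genes named in full were those past the limit in both knockdown pairs, the 3 with the largest ratios in each comparison, all regulators and those whose knockdown ratio differed 1.5-fold between hemin states; other members were named in shorter form. The members and lists were chosen with earlier results of these data known. Alternatives varied the scaling, the transcript per gene, the pseudocount, the floor, the limit and the length trend. Read recovery and intervals were tested on simulated data. Python 3.11.15 with numpy 2.4.6, scipy 1.17.1, pandas 2.3.3, statsmodels 0.14.6 and matplotlib 3.10.9 was used.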

Additional observations from a re-analysis of the deposited data

Results flagged for a closer look

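In 5 genes the knockdown ratio had opposite signs in the 2 hemin states, with both counting intervals off 0, and the difference between the states was not tested. The share of all genes that meet this rule was not computed, so the count has no background and is not a result about the set. With and without hemin these log2 ratios were 0.22 and -0.87 for IDI1, 0.37 and -0.25 for CYP51A1, 0.43 and -0.44 for STARD4, 0.32 and -0.28 for ACACA, and 0.04 and -0.28 for SCD.

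In 9 genes the hemin ratio had opposite signs in knockdown and control cells in the same sense, and this difference was not tested either. The count depended on the scaling: 4 of the 9 kept opposite signs in the deposited values as they stand, where LSS, CYP51A1, SREBF2, ACSS2 and FADS2 lost them, and 8 of 9 with equal upper quartiles, where FADS2 lost them. The 5 genes of the knockdown ratios kept opposite signs under each alternative run, but several of these runs could not have changed that. The floor and limit settings do not alter the sign of a ratio. The unscaled values shifted all genes by 0.21 with and -0.56 without hemin, which moves the ratios of these 5 further apart. In knockdown and in control cells the log2 ratios were 0.47 and -0.63 for IDI1, 0.38 and -0.39 for SQLE, -0.45 and 0.16 for LSS, 0.48 and -0.13 for CYP51A1, -0.14 and 0.11 for SREBF2, 0.51 and -0.36 for STARD4, 0.13 and -0.13 for ACSS2, 0.11 and -0.28 for ELOVL6, and -0.06 and 0.04 for FADS2. Both sets rest on the same 4 libraries, so a gene in both does not appear there through separate data. Each group was 1 library, so how far such opposite signs arise between replicates is not known here. For the hemin ratios too, the share of all genes with such signs was not computed.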

How the results depend on the processing

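No paired analysis was possible because each group was 1 library and the labels give no replicate numbers. Of 184 recomputed values, 146 moved little or not at all and 38 moved. Some could not move: all 30 members reached the floor of 5 in every comparison, so dropping the floor left each value as it was. A single pair of libraries decides each ratio, and counting intervals do not cover the difference between cultures.

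Left unscaled, the deposited values shifted the median of all genes by 0.21 and -0.56 (knockdown with and without hemin) and by 0.93 and 0.16 (hemin in knockdown and control cells). In that order the sterol medians were then 0.84, -0.14, 0.77 and -0.14, and the fatty acid medians 0.48, -0.66, 0.94 and -0.0832. Under it 15 members were higher in the knockdown with hemin, 0 higher and 9 lower without, 21 higher and 0 lower with hemin in knockdown cells, and 2 higher and 0 lower with hemin in control cells. Plain library totals shifted the median of all genes by 0.10 and 0.11 in the knockdown pairs. The sterol medians there were 0.73 and 0.55, the fatty acid medians 0.37 and 0.0247, the fatty acid hemin median in knockdown cells was 0.00125, and 3 members were lower with hemin in control cells. Equal upper quartiles gave fatty acid medians of -0.18 (knockdown without hemin) and 0.0734 (hemin in knockdown cells), with 4 members higher and 1 lower with hemin in knockdown cells and 3 lower in control cells. With the length trend removed, the medians of the knockdown without hemin were 0.30 (sterol) and -0.00103 (fatty acid), the fatty acid hemin median in knockdown cells was -0.093, and 1 member was lower there. A 2-fold limit left 2 higher and 0 lower in the knockdown with hemin, 0 and 0 without, 1 and 0 with hemin in knockdown cells, and 0 and 0 in control cells. Within these alternatives the sterol medians of both knockdown comparisons stayed above 0 except for the unscaled values.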

Other observations

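FADS1 was set beside its neighbours on chromosome 11 after its values had been seen. FADS3, a desaturase-related gene of the same cluster, was at 20.8 scaled TPM in knockdown and 84.9 in control cells with hemin, and at 20.6 and 30.7 without. Its hemin ratios were 0.01 in knockdown and 1.45 in control cells, so the control library with hemin stood apart, as for FADS1. FADS2, which lies between FADS1 and FADS3, had knockdown ratios of 0.28 with and 0.39 without hemin. MYRF, a membrane-bound transcription factor of the same stretch, was at 0.35 scaled TPM in knockdown and 6.18 in control cells with hemin, and at 0.34 and 8.94 without. FEN1, a flap endonuclease of DNA replication next to FADS1, was at 64.4 in knockdown and 22.4 in control cells with hemin, and at 83.6 and 40.4 without. All 9 protein-coding genes of the stretch had a row, and their ratios differed in sign.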
